A study of Mus musculus with 25 samples.

Results

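Enzymes that modify collagen and cross-link it are the subject here: the alpha subunits of collagen prolyl 4-hydroxylase (P4ha1, P4ha2, P4ha3), the lysyl hydroxylases (Plod1, Plod2, Plod3) and 4 lysyl oxidases (Lox, Loxl1, Loxl2, Loxl3). Each gene's level is the sum of the TPM (abundance per unit of transcript length, set to the same total in each library) of its transcripts, and these are 10 of 35969 genes with a listed transcript. The genes were chosen by function at a time when the diet differences of these mice were known, so HFHS against CNTL is given as a description of their levels: no p-value of it is printed for a gene's level, and counts of genes called for diet support nothing. Messenger RNA of heart tissue was sequenced from 25 male mice, 5 in each of 5 groups. WT mice and littermates heterozygous for glutathione peroxidase 4 (GPx4+/-), from a line bred to C57BL6/J, were 8 to 10 weeks old when the diets began and ate them for 16 weeks. Of daily kcal, CNTL gave 6% as fat and about 75% as starch-based carbohydrate, whereas HFHS gave 35.5% as fat from lard, 38% as sucrose and 1.5% as cholesterol. Both genotypes were studied on both diets, and a further group of WT mice on HFHS (WT HFHS + Carnosine) drank 80 mM carnosine, a histidine dipeptide, from week 7. Carnosine in GPx4+/- mice is not analysed here.

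Prolyl 4-hydroxylase works in the endoplasmic reticulum and turns proline of the collagen repeat into 4-hydroxyproline, which keeps the triple helix stable at body temperature. Its alpha subunits hold the catalytic site, its beta subunit is protein disulfide isomerase (P4hb), and it needs iron, 2-oxoglutarate, oxygen and ascorbate. Lysyl hydroxylases use the same cofactors on lysine, and the hydroxylysine they make carries sugars and enters cross-links. Lysyl oxidases are copper enzymes that act outside the cell and oxidize lysine and hydroxylysine to aldehydes, from which cross-links of collagen and elastin form. In the heart most fibrillar collagen is made by fibroblasts.

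P4ha1, P4ha2 and Plod2 carry alternative coding exons, shown because transcripts that hold them are compared further on. P4ha1 (ENSMUSG00000019916.14, GRCm38, chromosome 10, 59323296 to 59373304, + strand) has a pair of 71-base exons of which a transcript holds either, chr10:59354340-59354410 and chr10:59355350-59355420, both on the + strand. Laid side by side without gaps they are identical at 42 positions (59.2%), and capitals mark the positions that differ.
P4ha1 upstream exon: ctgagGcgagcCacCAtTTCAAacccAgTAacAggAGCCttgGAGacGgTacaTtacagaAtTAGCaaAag
P4ha1 downstream exon: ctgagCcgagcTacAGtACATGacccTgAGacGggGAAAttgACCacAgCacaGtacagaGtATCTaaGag
P4ha2 (ENSMUSG00000018906.14, chromosome 11, 54100095 to 54131665, + strand) has a 60-base exon at chr11:54126238-54126297 and a 66-base exon at chr11:54126346-54126411, which differ in length and were not aligned, so no base is marked.
P4ha2 upstream exon: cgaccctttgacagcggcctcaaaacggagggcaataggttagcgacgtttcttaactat
P4ha2 downstream exon: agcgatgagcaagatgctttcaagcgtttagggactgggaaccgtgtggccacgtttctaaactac
Plod2 (ENSMUSG00000032374.14, chromosome 9, 92542223 to 92608428, + strand) has a 63-base exon at chr9:92601985-92602047 that is kept in the long form of lysyl hydroxylase 2 and skipped in the short form.
Plod2 cassette exon: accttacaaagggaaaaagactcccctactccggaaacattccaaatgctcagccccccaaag

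The 250 bases before the RefSeq starts of P4ha1 and P4ha2 are shown because the levels of both genes were higher on HFHS. They are RefSeq sequences (GRCm38.p6), at chr10:59323046-59323295 and chr11:54100674-54100923, both on the + strand. The RefSeq start of P4ha2 lies downstream of the GENCODE start given above, so its window is inside the GENCODE gene. Capitals mark ACGTG and GCGTG, the core letters of the element that hypoxia-inducible factor binds, on either strand (CACGT and CACGC where they lie on the other).
P4ha1: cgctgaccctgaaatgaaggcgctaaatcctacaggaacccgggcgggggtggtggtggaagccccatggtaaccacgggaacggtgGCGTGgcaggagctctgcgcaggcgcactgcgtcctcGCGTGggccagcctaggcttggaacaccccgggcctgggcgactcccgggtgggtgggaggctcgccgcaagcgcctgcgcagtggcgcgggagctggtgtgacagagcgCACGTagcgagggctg
P4ha2: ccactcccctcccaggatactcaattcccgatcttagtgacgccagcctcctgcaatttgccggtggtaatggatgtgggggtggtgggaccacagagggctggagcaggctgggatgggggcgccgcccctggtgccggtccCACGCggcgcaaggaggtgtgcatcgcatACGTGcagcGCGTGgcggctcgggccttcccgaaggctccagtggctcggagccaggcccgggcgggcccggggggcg
Each window held 3 matches. The RefSeq table matched 5 of the 10 genes, of which P4ha1, P4ha2, Plod1 and Plod3 held at least 1 match and P4ha3 held 0. Of all 32851 windows of this length 38.6% held a match, 16.6% for ACGTG and 28.2% for GCGTG. The letters g and c made up 69.6% of the P4ha1 window and 70.0% of the P4ha2 window, and the share among windows of like content was not computed. A match describes letters, and its part in the levels was not tested.

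The 10 genes ran over a wide range of levels. On the scaled TPM scale, in which each library was divided by a factor that evens out the typical gene, the mean over 25 mice was 39.6 for Plod1, 32.3 for P4ha2, 19.8 for Plod3, 19.6 for P4ha1, 9.46 for Loxl1, 7.87 for Plod2, 5.63 for Loxl2, 2.29 for Loxl3, 0.902 for Lox and 0.0777 for P4ha3. A mean of at least 1 was needed for a test across genes, so 8 of the 10 were tested among 11984 genes, and Lox and P4ha3 were not. Plod1, which hydroxylates lysine in the collagen helix, had a mean above that of 84.4% of tested genes. Loxl3, the lowest of those tested, was above 14.3%.

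Gpx4 was 591 to 778 scaled TPM in the 15 WT mice and 250 to 383 in the 10 GPx4+/- mice, so the genotypes matched their labels. Ventricular cardiomyocyte markers summed to between 30360 and 38130 in all 25 libraries. Summed atrial markers were 4566 in WT CNTL replicate 3, 7347 and 1481 in GPx4+/- CNTL replicates 1 and 2 and 2695 in GPx4+/- HFHS replicate 4, against 30.6 to 580.2 elsewhere. Summed valve markers were 137 in WT CNTL replicate 3 and 155 in WT HFHS replicate 4, against 7.83 to 63.1 elsewhere. Calls for diet are therefore also given without these 5 libraries. In bulk tissue, fewer cells of a type and less RNA per cell cannot be told apart.

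P4ha2 was the gene that the diets separated most cleanly. Its scaled TPM in WT mice was 27.8, 28.7, 27.5, 28.1 and 27.4 on CNTL and 36.0, 34.5, 35.7, 40.0 and 33.7 on HFHS. In GPx4+/- mice it was 26.1, 28.7, 22.9, 24.0 and 26.8 on CNTL and 36.9, 33.9, 40.2, 35.3 and 37.9 on HFHS. All 10 HFHS mice without carnosine lay above all 10 CNTL mice, as was so in that direction for 0.35% of the genes tested. WT mice averaged 27.9 ± 0.536 on CNTL and 36.0 ± 2.42 on HFHS, and GPx4+/- mice 25.7 ± 2.31 and 36.8 ± 2.41 (SD, n = 5 per group). The difference between diets on the log2(scaled TPM + 0.5) scale was 0.36 (SE 0.0598) in WT and 0.51 (SE 0.0598) in GPx4+/-. Without the 5 libraries rich in atrial or valve markers it was 0.32 (SE 0.0583) and 0.59 (SE 0.0630).

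P4ha1, the alpha subunit of the enzyme form found in most cells, was higher on HFHS by less. Its scaled TPM in WT mice was 19.3, 17.0, 16.7, 17.1 and 15.2 on CNTL and 20.1, 20.2, 20.6, 23.8 and 17.1 on HFHS. In GPx4+/- mice it was 16.5, 19.3, 12.8, 16.0 and 14.8 on CNTL and 20.3, 20.0, 21.6, 18.8 and 25.8 on HFHS. In each genotype the highest CNTL mouse lay above the lowest HFHS mouse, so the groups overlapped. The log2 difference between diets was 0.25 (SE 0.102) in WT and 0.42 (SE 0.102) in GPx4+/-. P4ha3 was between 0 and 0.173 in all mice, far below both.

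The 3 alpha subunits together came to 45.0 ± 1.69 scaled TPM in WT mice on CNTL and 56.4 ± 4.75 on HFHS, and to 41.6 ± 4.48 and 58.2 ± 4.41 in GPx4+/- mice (SD, n = 5 per group). P4ha2 was the more abundant subunit in every group. The ratio of P4ha2 to P4ha1 was 1.65 ± 0.132 on CNTL and 1.78 ± 0.115 on HFHS in WT, and 1.63 ± 0.157 and 1.74 ± 0.170 in GPx4+/- (SD, n = 5 per group), differences within the spread between mice.

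**Figure D1:**
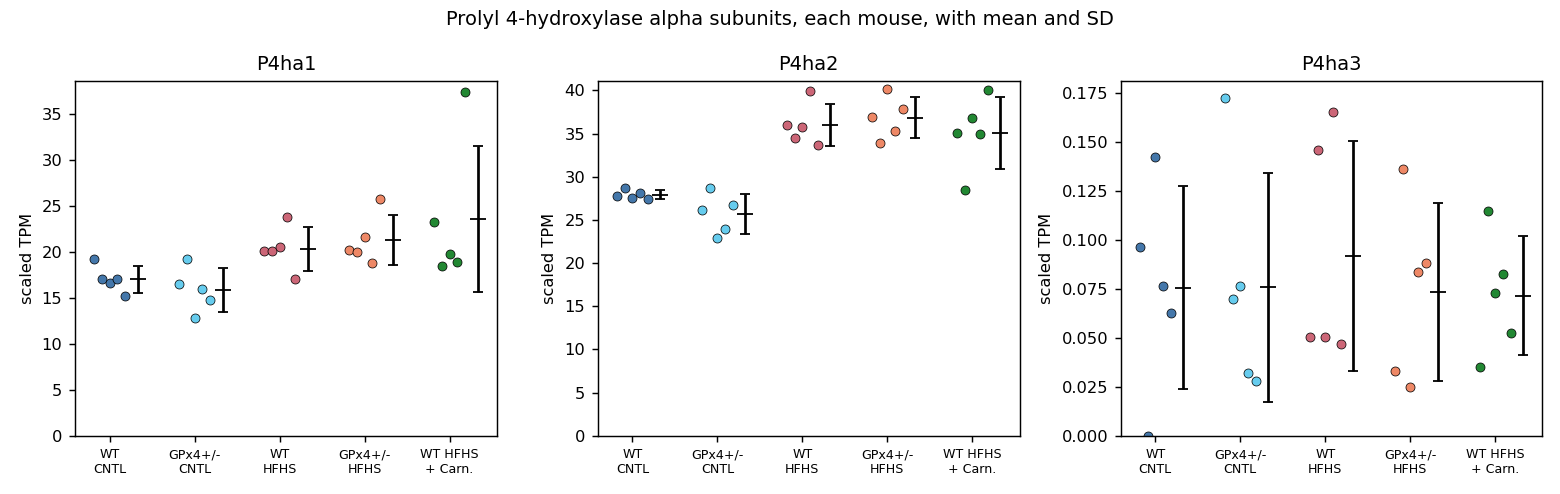
Scaled TPM (vertical axes, from 0) of the prolyl 4-hydroxylase alpha subunits in each mouse by group, with points for replicates 1 to 5 from left to right and the mean and SD beside them. For P4ha2 all CNTL mice lie at 28.7 or lower and all HFHS mice without carnosine at 33.7 or higher.

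Over the 10 CNTL and 10 HFHS mice without carnosine, within each genotype, the CNTL and HFHS ranges of each lysyl hydroxylase overlapped. Plod1 was 34.8 to 43.3 on CNTL and 36.7 to 42.4 on HFHS in WT mice, and 32.6 to 42.0 and 38.2 to 42.9 in GPx4+/- mice, ranges that overlapped. Its log2 difference between diets was 0.03 (SE 0.0672) in WT and 0.11 (SE 0.0672) in GPx4+/-. Plod3, which also adds sugars to hydroxylysine, averaged 19.5 ± 3.76 on CNTL and 21.1 ± 3.65 on HFHS in WT and 18.3 ± 2.61 and 20.5 ± 0.797 in GPx4+/- (SD, n = 5 per group). Its highest values, 25.6 and 27.0, were in WT CNTL replicate 3 and WT HFHS replicate 4, the pair of mice with the highest valve marker sums. In GPx4+/- the log2 difference was 0.17 (SE 0.120), and 0.31 (SE 0.0858) without the 5 libraries rich in atrial or valve markers, which leaves 3 CNTL mice at 15.7 to 17.8 and 4 HFHS mice at 19.7 to 21.8.

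Plod2, which hydroxylates the ends of collagen where cross-links start, was the tested gene whose diet difference lay below 0 in GPx4+/- mice. There it was 11.0, 9.02, 9.67, 7.67 and 7.64 on CNTL and 7.58, 8.17, 7.53, 6.79 and 7.34 on HFHS. The groups overlapped between 7.64 and 8.17. The log2 difference was -0.24 (SE 0.102), -0.17 (SE 0.0983) without GPx4+/- CNTL replicate 1 and -0.11 (SE 0.0954) without the 5 libraries rich in atrial or valve markers, of which that mouse, at 11.0, was 1. WT mice averaged 7.71 ± 1.03 on CNTL and 7.71 ± 0.917 on HFHS (SD, n = 5 per group). Summed, the lysyl hydroxylases came to 66.1 ± 4.24 and 68.6 ± 5.80 in WT and 65.0 ± 3.48 and 68.5 ± 2.93 in GPx4+/- (SD, n = 5 per group).

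Loxl1, which elastic fibres need for their upkeep, was the most abundant oxidase. Its scaled TPM in WT mice was 8.14, 8.35, 7.54, 9.46 and 6.97 on CNTL and 7.88, 12.1, 9.28, 16.3 and 7.46 on HFHS. In GPx4+/- mice it was 7.84, 8.16, 8.80, 8.53 and 7.08 on CNTL and 10.2, 11.1, 8.82, 9.08 and 13.0 on HFHS. The WT groups overlapped, and the GPx4+/- groups were apart by the gap between 8.80 and 8.82. The log2 difference between diets was 0.32 (SE 0.157) in WT and 0.34 (SE 0.157) in GPx4+/-, and the WT value was 0.16 (SE 0.127) without WT HFHS replicate 4.

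Loxl2 and Loxl3, oxidases with scavenger receptor domains, varied widely between mice of a group. Loxl2 was 3.44 to 6.65 on CNTL and 3.76 to 10.0 on HFHS in WT mice, and 3.56 to 6.33 and 5.23 to 7.60 in GPx4+/- mice. The log2 difference between diets was 0.33 (SE 0.216) in GPx4+/- mice, whose ranges overlapped. Its SD in WT HFHS was 47.1% of the mean, against 6.71% for P4ha2, and these were 19.7% and 3.06% without WT HFHS replicate 4. Loxl3 averaged 2.28 ± 0.584 on CNTL and 2.67 ± 0.944 on HFHS in WT and 2.08 ± 0.211 and 2.46 ± 0.554 in GPx4+/- (SD, n = 5 per group), where the log2 difference was 0.18 (SE 0.179). Lox, the founding enzyme of the family, was 0.873 to 1.02 and 0.504 to 2.12 in WT and 0.647 to 0.885 and 0.729 to 1.21 in GPx4+/-. Summed, the oxidases came to 16.6 ± 2.29 and 19.9 ± 7.66 in WT and 15.8 ± 0.992 and 20.1 ± 3.15 in GPx4+/- (SD, n = 5 per group), and to 16.7 ± 3.16 (SD, n = 4) in WT HFHS without replicate 4.

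WT HFHS replicate 4 was the highest mouse of its group for all 10 genes. Its summed valve markers were 155, against 7.83 to 63.1 in the others of the group, and its summed activated fibroblast markers (Postn, Cthrc1, Meox1 and Acta2, of which Cthrc1 averaged under 1) were 353, against 78.2 to 152. Acta2 is in the smooth muscle list too. This mouse was also the highest of its group for smooth muscle (1210), fibroblast (1641), endocardium and vein (62.0), macrophage (91.4) and endothelial (267) sums. It was the lowest for pericyte (260) and ventricular cardiomyocyte (30580) sums. The part of these cells in its levels was not tested. Without this mouse the log2 diet difference in WT was -0.22 (SE 0.176) for Loxl2, 0.02 (SE 0.163) for Loxl3 and 0.03 (SE 0.114) for Plod3, where with it the values were 0.01 (SE 0.216), 0.17 (SE 0.179) and 0.12 (SE 0.120). For P4ha2 it was 0.32 (SE 0.0592) without it.

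**Figure D2:**
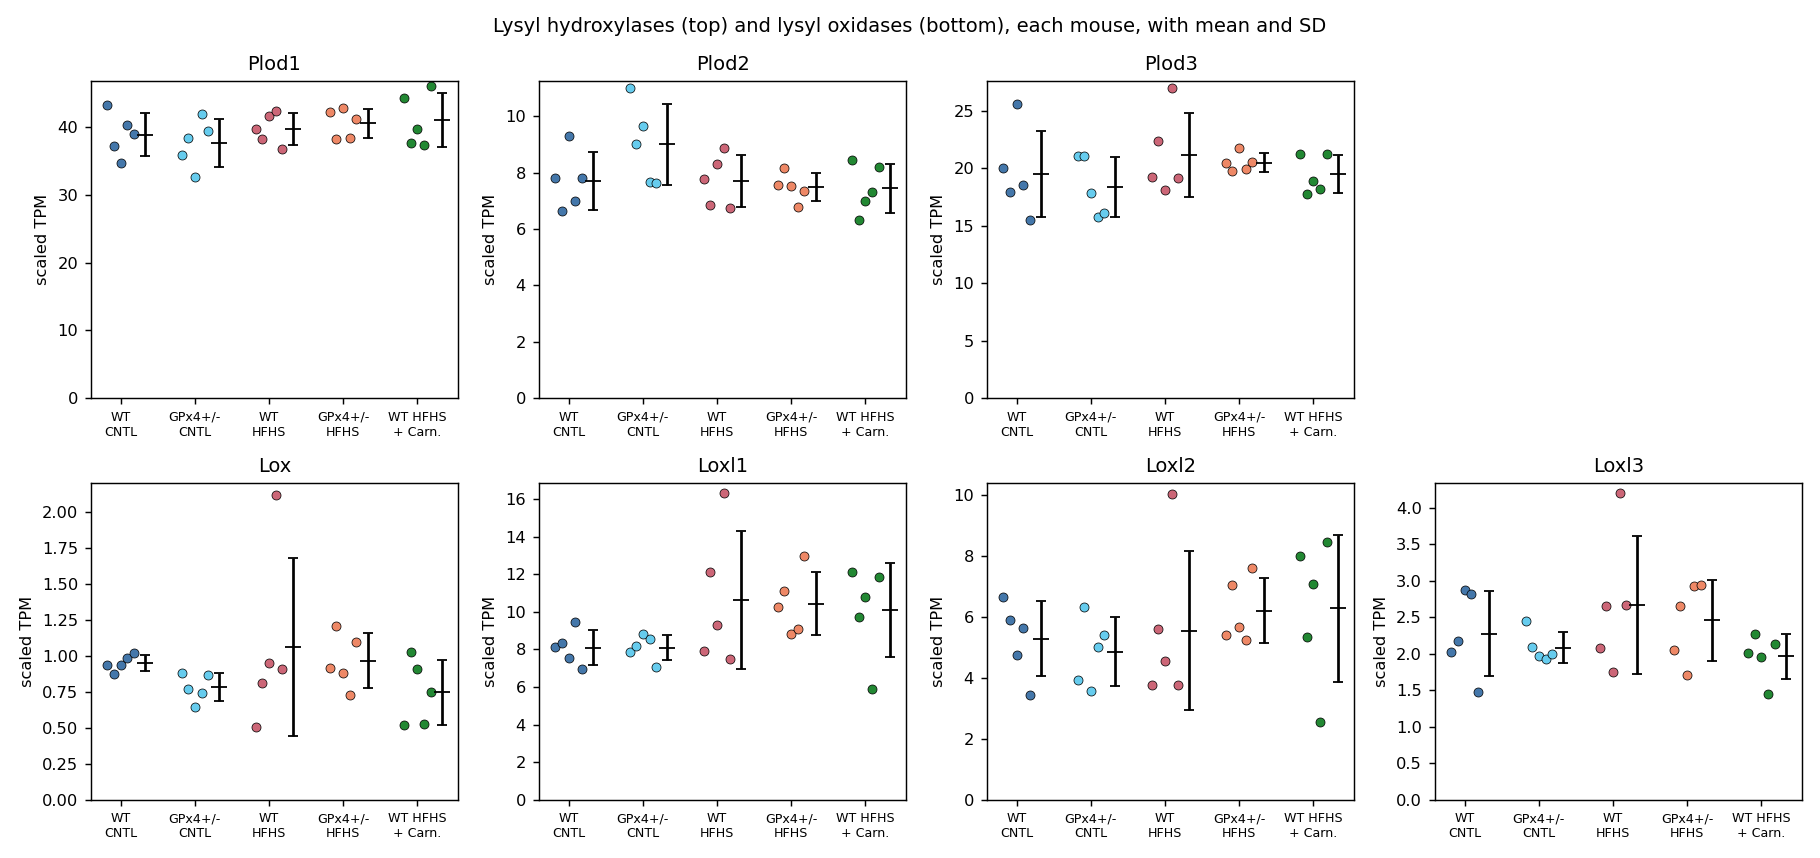
Scaled TPM (vertical axes, from 0) of the lysyl hydroxylases (top) and lysyl oxidases (bottom) in each mouse by group, with points for replicates 1 to 5 from left to right and the mean and SD beside them. The fourth WT HFHS mouse is the highest of its group in every panel, at 16.3 for Loxl1 and 10.0 for Loxl2.

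Over the list, the diet difference was above 0 for 8 of 8 tested genes in WT (50.1% of all genes) and 7 of 8 in GPx4+/- (49.6%). The median was 0.146 in WT and 0.256 in GPx4+/-, against 0 and -0.002 over all genes. An adjusted p under 0.05 by limma was reached by 1 gene in WT, P4ha2, where 1.18% of all genes reached it and 0.659% were higher. In GPx4+/- it was reached by 2, P4ha1 and P4ha2 (3.34% of all genes, 2.18% higher), and over both genotypes by the same 2 (8.33%, 4.68% higher). Genes with all HFHS mice above all CNTL mice numbered 1 in WT (P4ha2; 2.28% of all genes) and 2 in GPx4+/- (P4ha2 and Loxl1; 2.53%). Since this contrast was known when the list was drawn up, nothing is read from these counts. Without the 5 libraries rich in atrial or valve markers the counts were 1, 2 and 3, the gene gained being Plod3 at 0.22 (SE 0.0585), where 107, 301 and 749 of all 11984 genes were called, against 142, 400 and 998 with all 20 mice. P4ha1 lost its call in GPx4+/- without CNTL replicate 1, 3, 4 or 5 or without HFHS replicate 1, 3 or 5, at log2 differences of 0.34 to 0.43. With TPM not rescaled 0 genes of the list were called in WT and 1, P4ha2, in GPx4+/-, where 38 and 424 of 11998 genes were called, and 8.73% of all genes called in GPx4+/- were then higher on HFHS, against 65.2% with scaling. The P4ha2 difference in WT was 0.36 without rescaling too, with an SE of 0.0886 against 0.0598.

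**Figure D3:**
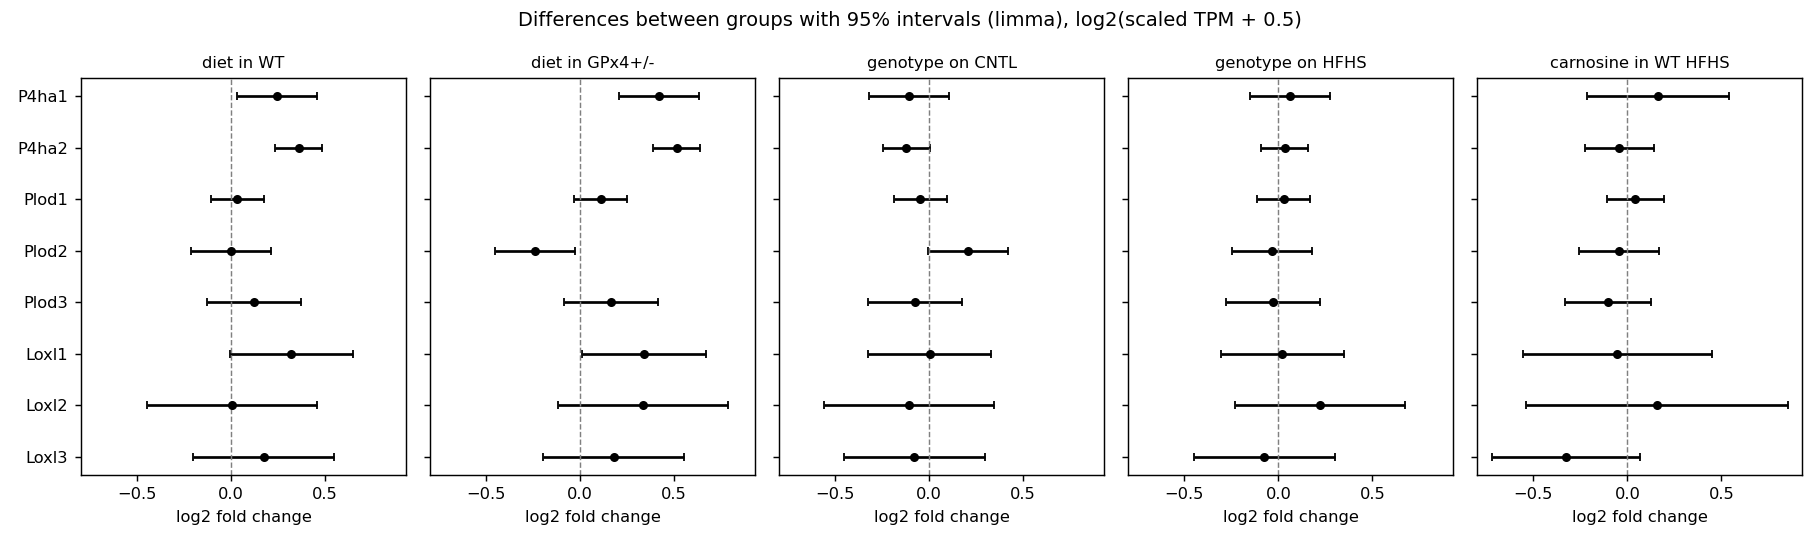
Differences between groups on the log2(scaled TPM + 0.5) scale (horizontal axis) with 95% intervals from limma for the 8 tested genes, with a line at 0. The diet panels describe the contrast known when the genes were chosen. P4ha2 has the narrowest intervals for diet, around 0.36 in WT and 0.51 in GPx4+/-, and Loxl2 the widest, around 0.01 and 0.33.

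Whether the effect of diet differed between genotypes was tested as an interaction. By limma 0 of the 8 genes were called, as were 0 (0%) of all genes, and at an unadjusted p under 0.05 there were 0 of the 8 and 856 of all genes (7.14%). P4ha2 had an interaction of 0.16 (SE 0.0846), with a 95% interval of -0.02 to 0.33 and an adjusted p = 0.704 from limma. For P4ha1 it was 0.17 (SE 0.144), interval -0.13 to 0.47, adjusted p = 0.802. For Plod2 it was -0.24 (SE 0.144), interval -0.54 to 0.06, adjusted p = 0.726. Without the 5 libraries rich in atrial or valve markers these 3 values were 0.28 (SE 0.0858), 0.40 (SE 0.142) and -0.12 (SE 0.130), with adjusted p of 0.392, 0.442 and 0.787 from limma. The largest value, with the widest interval, was that of Loxl2 at 0.33 (SE 0.306), interval -0.31 to 0.97, adjusted p = 0.828 from limma. It was 0.55 (SE 0.242) without WT HFHS replicate 4 and 0.68 (SE 0.271) without the 5 libraries, with adjusted p of 0.718 and 0.456 from limma.

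GPx4+/- against WT mice gave no call for these enzymes. By limma 0 of 8 genes were called on CNTL (0.0501% of all genes), on HFHS (0.0501%) and over both diets (0.0584%), and at an unadjusted p under 0.05 there were also 0 of 8 in each (6.28%, 4.57% and 3.9% of all genes). Over both diets the log2 difference was -0.04 (SE 0.0423) for P4ha2, with a 95% interval of -0.13 to 0.04, and 0.01 (SE 0.111) for Loxl1, with an interval of -0.22 to 0.24. On CNTL, P4ha2 differed by -0.12 (SE 0.0598) and Plod2 by 0.21 (SE 0.102), both with an adjusted p = 0.799 from limma. Without the 5 libraries rich in atrial or valve markers the P4ha2 value was -0.19 (SE 0.0630), and without GPx4+/- CNTL replicate 1 the Plod2 value was 0.13 (SE 0.0983). Lox on CNTL averaged 0.781 ± 0.0974 in GPx4+/- and 0.952 ± 0.0566 in WT (SD, n = 5 per group), which overlapped between 0.873 and 0.885. Its exact two-sided permutation p was 0.0159, the smallest of 40 such tests and unadjusted, and its adjusted p from limma without a filter was 0.878. The smallest p that 5 mice against 5 allow is 0.00794.

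Carnosine was compared with HFHS alone in WT mice, and by limma 0 of the 8 genes and 0 (0%) of all genes were called. At an unadjusted p under 0.05 there were 0 of the 8 and 505 of all genes (4.21%). P4ha2 was 35.0, 28.5, 36.8, 34.9 and 40.0 with carnosine, and its log2 difference from WT HFHS was -0.04 (SE 0.0837), with a 95% interval of -0.23 to 0.14 and an adjusted p = 0.964 from limma. P4ha1 was 23.3, 18.5, 19.8, 18.9 and 37.4, and its difference was 0.16 (SE 0.172), which was -0.01 (SE 0.0965) without the mouse at 37.4. The groups overlapped for both genes.

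The oxidases had wide intervals for carnosine. Loxl1 was 12.1, 9.73, 10.8, 5.91 and 11.8, with a difference of -0.05 (SE 0.230) and a 95% interval of -0.56 to 0.45. It lay on the other side of 0 without WT HFHS replicate 4, at 0.11 (SE 0.203), and without the carnosine mouse at 5.91, at 0.12 (SE 0.200). Loxl2 was 7.99, 5.34, 7.08, 2.54 and 8.44, with a difference of 0.16 (SE 0.317) and an interval of -0.54 to 0.85. That value was 0.38 (SE 0.284) without WT HFHS replicate 4 and 0.42 (SE 0.252) without the carnosine mouse at 2.54. Loxl3 was 2.01, 2.27, 1.96, 1.46 and 2.13, with a difference of -0.33 (SE 0.180), an adjusted p = 0.947 from limma and, without WT HFHS replicate 4, a value of -0.17 (SE 0.140). In the same comparison 0 of 5 valve, 0 of 6 smooth muscle and 0 of 6 fibroblast markers lay above 0, with median log2 differences of -1.0, -0.84 and -0.20, and 0 of them were called. For endocardium and vein it was 0 of 4, with a median of -0.41. Of macrophage and endothelial markers 4 of 5 each lay above 0, with medians of 0.0236 and 0.0228. Summed valve markers were 7.83 to 155 in WT HFHS, at most 63.1 without replicate 4, and 8.93 to 29.6 with carnosine. The part of these cells in the Loxl3 difference was not tested. Lox was 0.522 to 1.03. Among lysyl hydroxylases the differences were 0.04 (SE 0.0700) for Plod1, -0.05 (SE 0.0970) for Plod2 and -0.10 (SE 0.105) for Plod3, of which the last 2 were 0.00 (SE 0.0970) and -0.01 (SE 0.0800) without WT HFHS replicate 4.

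Against WT CNTL, mice on HFHS with carnosine also differed in diet, and the WT CNTL mice are those of the diet comparison, so these levels are a description too. The log2 difference was 0.32 (SE 0.0765) for P4ha2 and 0.41 (SE 0.166) for P4ha1. By limma 0 of the 8 genes were called there, where 0.234% of all genes were, and these 2 reached an unadjusted p under 0.05, where 13.1% of all genes did. The P4ha2 groups overlapped through the carnosine mouse at 28.5, which lay below the highest CNTL mouse at 28.7. With each mouse left out in turn the P4ha2 value was 0.39 (SE 0.0515) without that mouse, the fit in which the gene was called.

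The share of a transcript is its part of the gene's summed level, so a share can differ between diets through the rest of the gene, and such shares on the 2 diets are a description too. Of 50 listed transcripts 21 had a mean TPM of at least 1, and 18 of these, in 5 genes, were compared in 7 ways. By exact permutation 0 of 126 comparisons had an adjusted p under 0.05 and 12 had an unadjusted p under 0.05. The smallest p were for diet, in 2 transcripts of P4ha2 annotated as retained introns. The share of ENSMUST00000125651.7 was 3.75% ± 0.970 on CNTL and 2.42% ± 0.578 on HFHS in WT and 4.63% ± 1.37 and 2.63% ± 1.19 in GPx4+/- (SD, n = 5 per group). The share of ENSMUST00000139315.1 was 4.38% ± 1.64 and 3.11% ± 0.667 in WT and 5.17% ± 1.12 and 2.73% ± 0.670 in GPx4+/- (SD, n = 5 per group). The P4ha2 sum by which these shares are divided was higher on HFHS.

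The alternative exons printed above were followed as shares of the coding transcripts that hold or skip them, a choice made after transcript levels were seen. These shares set forms of a gene against each other and were compared between groups. The upstream exon of P4ha1 was in 23.4% ± 1.17 on CNTL and 27.0% ± 3.03 on HFHS in WT, in 24.4% ± 1.92 and 24.9% ± 2.12 in GPx4+/-, and in 24.8% ± 3.27 with carnosine (SD, n = 5 per group). The upstream exon of P4ha2 was in 36.9% ± 2.87 and 37.3% ± 3.70 in WT, in 32.7% ± 4.80 and 37.7% ± 2.15 in GPx4+/-, and in 37.8% ± 2.85 with carnosine (SD, n = 5 per group). In both genes the downstream exon was the more common of the pair. By exact permutation 0 of 21 comparisons of exon shares had an adjusted p under 0.05 (smallest adjusted p = 0.381), and 0 an unadjusted p under 0.05. The smallest unadjusted values were for diet. The P4ha1 share was higher on HFHS by 2.06 percentage points over both genotypes (exact p = 0.0601) and by 3.64 in WT (exact p = 0.0635), and the P4ha2 share by 4.99 in GPx4+/- (exact p = 0.0714). The P4ha1 share is that of a single transcript already among the 126 comparisons, where its adjusted p in WT was 0.471 by exact permutation. Because the exons were chosen after transcript levels were seen, these differences between diets are a description too.

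Both forms of P4ha2 were higher in level on HFHS. The form with the downstream exon was 13.7 ± 0.781 scaled TPM on CNTL and 18.1 ± 1.42 on HFHS in WT and 12.9 ± 0.833 and 18.6 ± 0.887 in GPx4+/- (SD, n = 5 per group). The form with the upstream exon was 8.06 ± 1.02 and 10.8 ± 1.55 in WT and 6.39 ± 1.84 and 11.3 ± 1.34 in GPx4+/- (SD, n = 5 per group). The long form of Plod2 made up 91.6% ± 1.91 and 93.0% ± 4.10 of long and short forms in WT, 90.6% ± 3.48 and 93.8% ± 1.99 in GPx4+/-, and 91.8% ± 3.42 with carnosine (SD, n = 5 per group). The short form was listed at 0 to 0.798 scaled TPM.

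**Figure D4:**
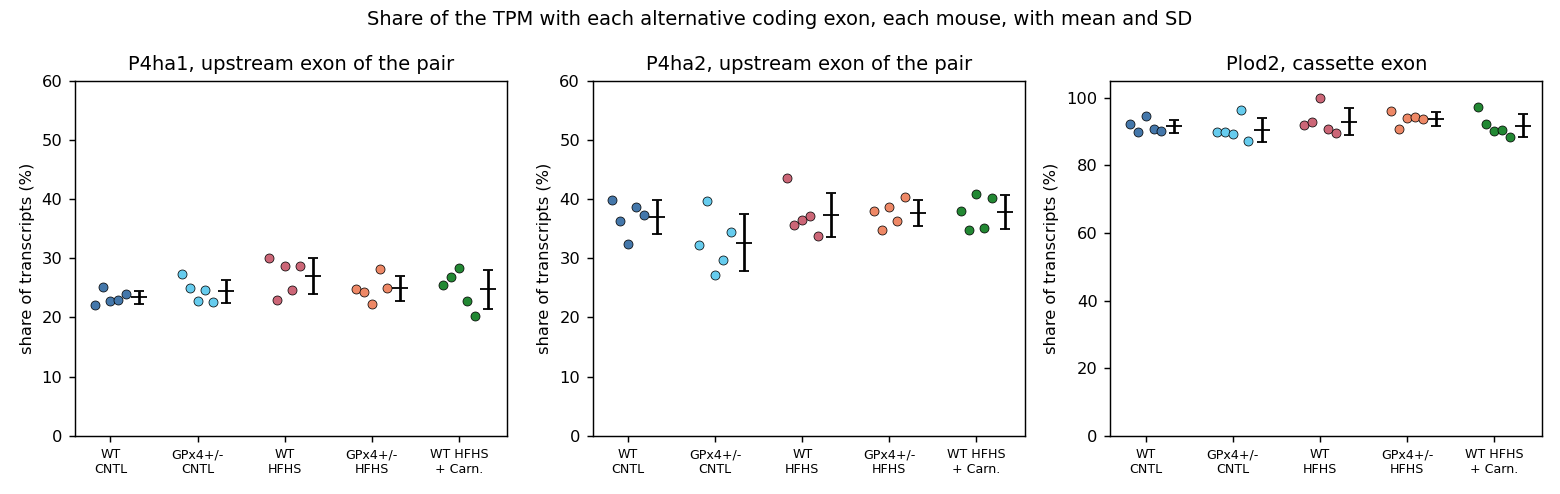
Share (percent, vertical axes) of the TPM of coding transcripts that hold the upstream exon of P4ha1 (left) or P4ha2 (middle) or the cassette exon of Plod2 (right), in each mouse by group, with the mean and SD. The groups overlap in each panel, and Plod2 shares lie at 87.4% or higher.

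Mouse by mouse, as deviations from group means over 25 mice, Loxl1 and Loxl2 varied together most closely (Pearson r = 0.855). P4ha1 and P4ha2 followed (r = 0.703), while for P4ha2 and Loxl3 the value was 0.029. Both levels of a pair come from the same library and share its scaling, and the values are given as a description. By the same measure the genes most like P4ha2 were Fbxo40 (r = 0.799), Tead1 (r = 0.794) and Smurf2 (r = 0.793). Those most like P4ha1 were Pds5a (r = 0.854), Palmd (r = 0.845) and Rras2 (r = 0.829). For Loxl1 they were Msn (r = 0.951), Col6a1 (r = 0.921) and Pea15a (r = 0.91), and for Loxl2 Fbn1 (r = 0.94), Meox1 (r = 0.926) and Itpripl2 (r = 0.894), Fbn1 being the gene of the microfibril protein fibrillin. For Loxl3 they were Olfml2b (r = 0.869), Timp1 (r = 0.859) and Ptgis (r = 0.851). For Plod1 they were Tuba8 (r = 0.874), Klhdc8a (r = 0.858) and Papln (r = 0.855), for Plod2 Dynlt1c (r = 0.795), Pnisr (r = 0.777) and Sltm (r = 0.758) and for Plod3 Ltbp3 (r = 0.837), Pkd2 (r = 0.82) and Map1b (r = 0.814).

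**Figure D5:**
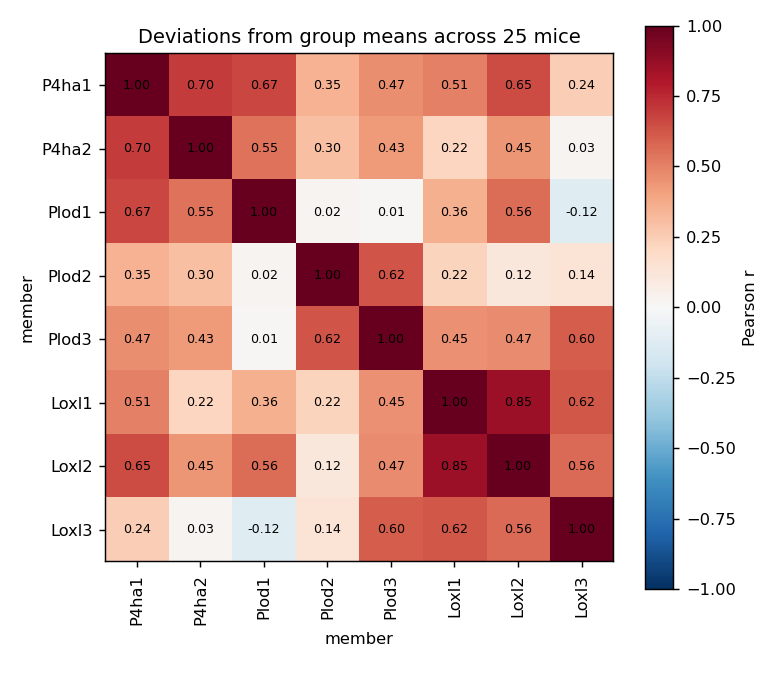
Pearson r (colour, from -1 to 1) between the 8 tested genes, on deviations from group means of log2(scaled TPM + 0.5) over 25 mice. The highest value off the diagonal is 0.855, for Loxl1 with Loxl2.

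Beside sums of cell type markers, on the same deviations over 25 mice, the enzymes had values of r on both sides of 0. With fibroblast markers r was 0.654 for Loxl3 and 0.516 for Plod3, but -0.323 for P4ha2, -0.226 for P4ha1 and -0.583 for Plod1. With endothelial markers it was 0.766 for Plod1, 0.679 for Loxl2, 0.650 for P4ha1, 0.467 for Loxl1 and 0.451 for P4ha2, and without the 2 mice farthest from the median 0.675, 0.638, 0.486, 0.516 and 0.248. The 5 endothelial markers summed to 207 to 274 on CNTL and 243 to 276 on HFHS without carnosine, and 0 of them were called for diet. With valve markers it was 0.807 for Loxl3 and 0.683 for Plod3, and 0.726 and 0.460 without the 2 mice farthest from the median. With activated fibroblast markers it was 0.707 for Loxl3, 0.623 for Loxl1 and 0.517 for Loxl2, and 0.562, 0.378 and 0.254 without the 2 farthest mice. With macrophage markers it was 0.691 for Loxl3 and 0.614 for Plod3, and 0.618 and 0.495 without the 2 farthest mice. Values below 0 for Plod3 and Plod2 were -0.696 and -0.597 with pericyte and -0.652 and -0.627 with ventricular cardiomyocyte markers. Without the 2 farthest mice these were -0.556 and -0.377 with pericyte and -0.529 and -0.496 with ventricular cardiomyocyte markers. Plod2 with smooth muscle markers was at -0.331, and at -0.674 without the 2 farthest mice. For Loxl3 and Plod3 several cell types thus had values of similar size, and none is singled out. For P4ha1, Plod1 and Loxl2 the endothelial value was the largest in size. The next were -0.275 (ventricular cardiomyocyte), -0.583 (fibroblast) and 0.517 (activated fibroblast). Without the 2 farthest mice the next were -0.461 (smooth muscle), -0.501 (fibroblast) and 0.483 (macrophage). Of 6 fibroblast markers, 2 (Pdgfra and Lum) were called higher on HFHS over both genotypes, where 4.68% of all genes were, and the list summed to 739 to 1628 on CNTL and 888 to 1726 on HFHS without carnosine. No marker of that list was at 0 in all mice. In other lists 0 markers were called higher, and the median log2 difference over both genotypes was 0.57 for smooth muscle (5 of 6 above 0), 0.25 for endocardium and vein (4 of 4), 0.50 for activated fibroblasts (3 of 3) and -0.94 for atrial cardiomyocytes (0 of 5). In WT alone it was 0.88 for smooth muscle and 0.54 for endocardium and vein. The part of these cell types in the levels of the enzymes was not tested.

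The partners of these enzymes were read from lists that were also drawn up with earlier results known, and genes of them are named because they were called or had the smallest p for diet. Their diet values are thus a description as well, and nothing is read from the counts, which stand beside 8.33% of all genes called over both genotypes, 4.68% higher. Of 15 genes for procollagen folding and modification, 2 were called higher on HFHS over both genotypes and 0 lower, with a median log2 difference of 0.0686. Serpinh1, the collagen chaperone Hsp47, differed by 0.31 (SE 0.0667) on the log2 scale, and WT mice averaged 74.2 scaled TPM on CNTL and 90.8 on HFHS, and GPx4+/- mice 73.2 and 93.0. Tmem38b, an endoplasmic reticulum channel whose loss impairs collagen modification in bone, differed by 0.33 (SE 0.0665). Of 13 tested genes for oxidase processing, copper supply and matrix partners, 0 were called and the median was 0.172. Among them Pcolce, an enhancer of procollagen processing, was at 0.23 (SE 0.1004) and Eln, the elastin gene, at 0.34 (SE 0.151).

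Of 16 collagen chain genes, 1 was called higher over both genotypes, Col6a3 at 0.51 (SE 0.107), and 15 lay above 0 with a median of 0.327. In GPx4+/- mice alone 1 was called lower, Col4a3, a chain of basement membrane collagen, and 0 higher, where 3.34% of all genes were called. Of 5 other oxygen-sensing hydroxylases, relatives in chemistry of P4ha2, 2 were called higher over both genotypes and 0 lower, with a median of -0.01. Egln3, a prolyl hydroxylase that acts on hypoxia-inducible factor, differed by 0.70 (SE 0.148), and WT mice averaged 31.3 scaled TPM on CNTL and 44.9 on HFHS, and GPx4+/- mice 29.2 and 54.8. Egln1, of the same family, differed by 0.15 (SE 0.0421). Of 12 genes known to be induced by hypoxia, 4 were called higher (Ldha, Ndrg1, Pdk1 and Ddit4) and 1 lower, with a median of 0.0563. Ldha, which makes lactate from pyruvate, was at 0.30 (SE 0.0498) and Slc2a1, the glucose transporter GLUT1, at -0.29 (SE 0.0794). With carnosine 0 genes of these lists were called by limma.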

How the data were processed

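Heart mRNA of 25 mice in 5 labelled groups was used. The authors deposited TPM per transcript and library, which sum to 1000000 and keep no read depth, so counting error was not computed and replicate spread is the only error given. The submitters' processing notes name kallisto 0.43.1, sleuth 0.30.0 and GRCm38 without stating roles, and the paper describes STAR and DESeq2 on gene counts. Columns were matched to mice by library name, because column positions stated in the labels contradict the header. Of 119215 transcripts 116772 matched GENCODE M21 and 2443 did not. TPM were summed per gene, divided by median-ratio factors (0.864 to 1.16, from 11879 genes; this gene set and the transcript match follow earlier processing of the same data) and log2-transformed after adding 0.5, which understates changes of low genes. Genes averaging 1 or more (11984) were fitted in limma 3.58.1 (R 4.3.3, mean-variance trend, Benjamini-Hochberg adjustment, threshold 0.05), with 20 mice in a single fit of 4 groups, or 10 mice for each comparison with carnosine. Lox and P4ha3 were fitted without that filter. Transcript shares and single levels were compared by exact two-sided permutation. The fit was tested on simulated data.

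The genes and lists were chosen with earlier results of these data known. Named genes were the 10 members, Gpx4, the genes called for diet over both genotypes in each partner list (up to 4 by smallest p, otherwise 2 by smallest p; Ddit4 and Col4a3 were named as well, after their values were seen), and the 3 genes most alike to each tested member. Marker lists covered fibroblast, activated fibroblast, smooth muscle, pericyte, endothelium, endocardium and vein, valve, epicardium, atrial and ventricular cardiomyocyte, macrophage, adipocyte and hepatocyte; over both genotypes diet calls were Lum and Pdgfra (fibroblast) and Myh6 (ventricular, lower), and 0 in the other lists. Marker limits for leaving out 5 libraries were set after the sums were seen. Other settings were pseudocounts of 0.1 and 1, no filter, a minimum of 5, unscaled TPM, quantile normalization, a replicate block, array weights, a joint fit of 25 mice, each mouse left out and, for shares, a transcript minimum of 0.5 and log2 ratios. The labels do not say which mice were given dextrose before death.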

Additional observations from a re-analysis of the deposited data

Results flagged for a closer look

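In 65 sets of 5 mice (10 genes and 3 exon shares in 5 groups), 3 had a mouse farther from the rest than Dixon's 95% limit of 0.71 for the gap divided by the range, where chance marks about 1 in 20. P4ha1 was 37.4 scaled TPM in WT HFHS + Carnosine replicate 5 and 18.5 to 23.3 in the rest of its group, a gap of 0.744 of the range. Lox was 2.12 in WT HFHS replicate 4 and 0.504 to 0.954 in the rest, a gap of 0.722. The Plod2 cassette exon share was 96.5% in GPx4+/- CNTL replicate 4 and 87.4% to 89.9% in the rest, a gap of 0.719.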

How the results depend on the processing

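Of the counts of called genes, that for diet in WT (1) was 0 with unscaled TPM. That for diet in GPx4+/- (2) was 1 with no filter, with unscaled TPM, with a replicate block and with 25 mice in 1 fit, and 1 to 2 with each mouse left out. That for diet over both genotypes (2) was 1 with unscaled TPM. That for carnosine against WT CNTL (0) was 1 with array weights and with 25 mice in 1 fit, where 124 and 141 genes were called in all against 28, and 0 to 1 with each mouse left out. Counts for genotype, the interaction, carnosine against WT HFHS and transcript shares stayed at 0 in all settings run. The replicate number does not pair the mice (over 50 pairs of mice with the same number the mean correlation of deviations from group means was -0.01, with 9 over 0.1), and with the replicate block P4ha1 in GPx4+/- lost its call, with no other call of these genes changed and with 68, 306 and 876 genes called for diet in WT, in GPx4+/- and over both against 142, 400 and 998. That P4ha1 difference was 0.42 with the block (SE 0.109), with no filter (SE 0.104) and with 25 mice in 1 fit (SE 0.143), as in the main fit (SE 0.102). Loxl1 gained a call over both genotypes without WT HFHS replicate 1 (0.37) or 5 (0.38). Unscaled TPM moved the median interaction of all genes by -0.10.

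Of 72 differences of single genes, 32 were at least as large as their SE and changed sign in 0 of 918 refits. The other 40 were smaller and changed sign in 106 of 1073. Many of these refits could not change a sign. Leaving out a mouse of a group outside the comparison kept the difference as it was, as did the replicate block and the joint fit of all mice. Small differences also change sign more easily, which the split by SE builds in. The counts of sign changes are therefore a description, and nothing is read from them. With unscaled TPM, the values of the other sign were for genotype on HFHS P4ha1 -0.010, P4ha2 -0.040, Plod1 -0.044, Loxl1 -0.051, for genotype over both diets Loxl1 -0.0084, for the interaction Plod1 -0.032, Plod3 -0.061, Loxl1 -0.086, Loxl3 -0.089, for carnosine Plod1 -0.029, for carnosine against WT CNTL Plod3 -0.054. With quantile normalization, the values of the other sign were for diet in WT Plod2 -0.0092, Loxl2 -0.0047, for genotype on CNTL Loxl1 -0.014. With array weights, the values of the other sign were for diet in WT Loxl2 -0.11, for genotype on CNTL Loxl1 -0.049, for genotype on HFHS Plod3 0.012, for genotype over both diets P4ha1 0.0025, Plod1 0.0073, for carnosine Loxl1 0.058, for carnosine against WT CNTL Plod2 0.020. Without the 5 libraries rich in atrial or valve markers, the values of the other sign were for diet in WT Plod1 -0.031, Loxl2 -0.24, for genotype on CNTL Loxl1 -0.014, for genotype on HFHS Plod2 0.046, Plod3 0.070, Loxl3 0.019, for carnosine Plod2 0.0031, Loxl1 0.11, for carnosine against WT CNTL Plod2 0.021. With each mouse left out, the ranges of those that changed sign were for diet in WT Plod1 -0.0074 to 0.071, Plod2 -0.049 to 0.067, Loxl2 -0.22 to 0.11, for genotype on CNTL Plod1 -0.087 to 0.0025, Plod3 -0.15 to 0.024, Loxl1 -0.047 to 0.056, for genotype on HFHS P4ha1 -0.0063 to 0.12, Plod2 -0.078 to 0.014, Plod3 -0.082 to 0.060, Loxl1 -0.085 to 0.19, Loxl3 -0.19 to 0.078, for genotype over both diets P4ha1 -0.058 to 0.014, Plod1 -0.029 to 0.016, Loxl1 -0.042 to 0.093, Loxl2 -0.0074 to 0.17, for the interaction Plod3 -0.054 to 0.14, Loxl1 -0.086 to 0.18, Loxl3 -0.11 to 0.16, for carnosine P4ha1 -0.014 to 0.24, P4ha2 -0.093 to 0.028, Plod1 -0.00040 to 0.074, Plod2 -0.091 to 0.0071, Loxl1 -0.16 to 0.12, for carnosine against WT CNTL Plod2 -0.095 to 0.021, Plod3 -0.061 to 0.11. For exon shares, in percentage points, they were for diet in WT P4ha2 upstream exon share -1.16 to 1.27, Plod2 cassette exon share -0.35 to 2.28, for diet in GPx4+/- P4ha1 upstream exon share -0.36 to 1.18, for genotype on HFHS P4ha2 upstream exon share -0.53 to 1.90, Plod2 cassette exon share -0.072 to 2.55, for genotype over both diets Plod2 cassette exon share -0.86 to 0.76, for carnosine P4ha2 upstream exon share -0.38 to 2.04, Plod2 cassette exon share -2.66 to 0.49. The causes were not tested. TPM hold no read counts, so no counting error is given for the low levels of Lox, P4ha3 and the short Plod2 form.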
